A study of Homo sapiens with 6 samples.

Results

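Nucleotide synthesis was followed through 35 genes, taken by symbol from a list and found, all 35, among the 31368 genes of the table. They comprise 12 genes of de novo purine synthesis, 5 of de novo pyrimidine synthesis, 9 of nucleoside and base salvage, and 9 nucleotide kinases and enzymes that guard the nucleotide pool. The cells were CAL27, an established human line from an oral squamous cell carcinoma. RNA-seq was made from 3 untreated libraries and from 3 libraries of cells given 10 mM lactate for 24 h. The question the design poses is which mRNAs differ after the exposure. No source used here says whether lactic acid or a lactate salt was added, or at which pH. One cell line was used, and nothing says that the 3 libraries of a group came from separate cultures, so the p-values below measure only the spread between these libraries, which may be technical.

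Cells make purines by assembling the ring stepwise on phosphoribosyl pyrophosphate (PRPP), which leads to inosine monophosphate (IMP), and from IMP they branch to AMP and GMP. Pyrimidines are built the other way round: the ring is made first, joined to PRPP and converted to UMP, from which CTP and the thymidine nucleotides derive. Salvage enzymes return bases and nucleosides to the nucleotide pool at lower cost. Proliferating tumour cells draw on all of these routes for RNA and DNA, and MYC and ATF4 are known regulators of parts of them.

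Most of these mRNAs were lower after lactate, but a minority was higher. Of the 33 members that reached 1 FPKM (fragment counts scaled to gene length and library size) in at least 3 libraries, 20 fell, 8 rose and 5 did not pass limma's test at a Benjamini-Hochberg adjusted p of 0.05. So 84.8% of the tested members changed, against 58.6% of all 11792 genes tested. The 20 that fell make up 60.6% of the members, against 30.9% of all tested genes, and the 8 that rose make up 24.2%, against 27.7%. The groups did not overlap for 29 members, or 87.9%, against 65.5% of all tested genes. Fold changes compare lactate with untreated libraries on a log2 scale after adding 1 to the FPKM. Their median was -0.16 for the members and -0.0158 for all tested genes. Changes were small: the largest were a rise of 35.6% in the mean FPKM of GMPS and falls of 28.5% for NME1 and 38.9% for the weakly detected NME2. ADSL and TK2 lay below the expression limit and were not tested. In bulk RNA a lower level per cell and a smaller share of cells that express a gene cannot be told apart.

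**Figure D1:**
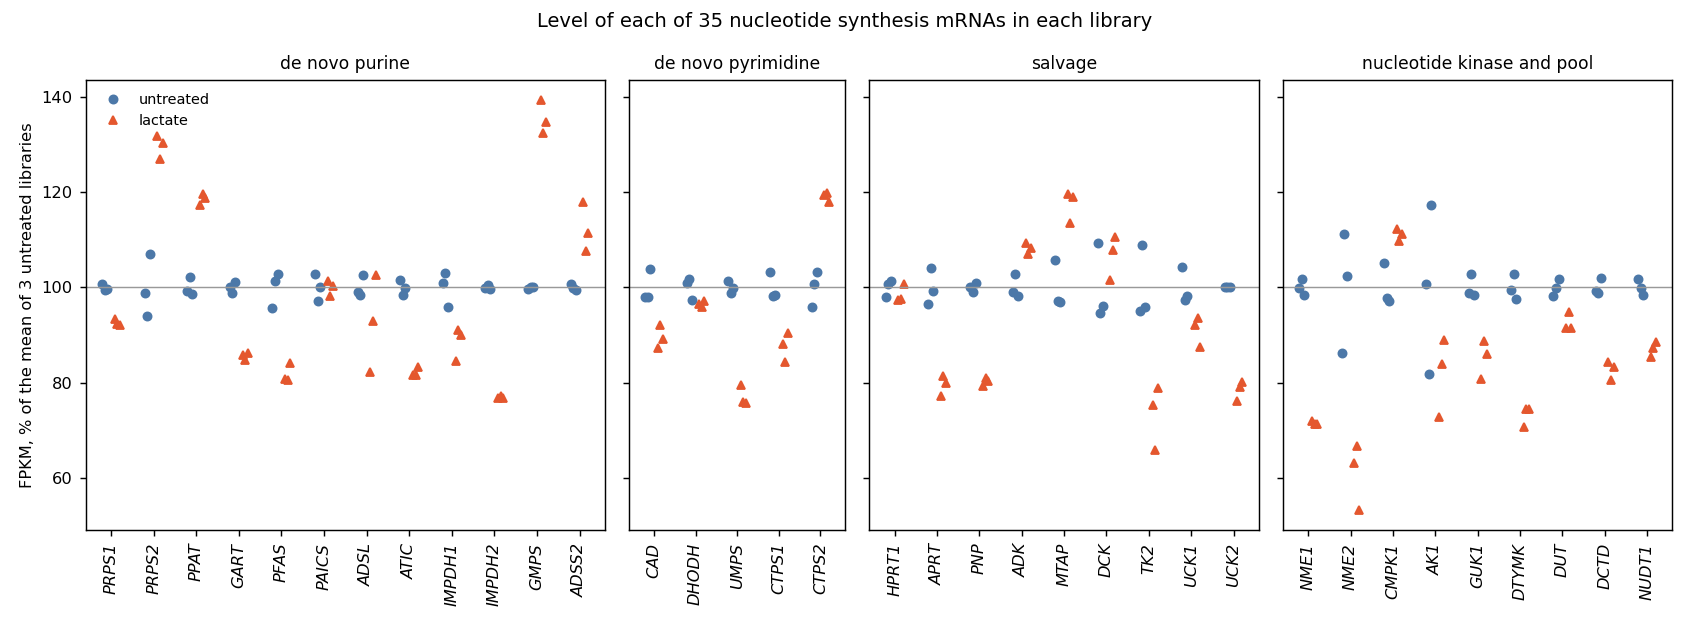
The level of each of the 35 mRNAs in each of the 6 libraries, as a percentage of the mean FPKM of the 3 untreated libraries (vertical axis), by route. Circles are untreated and triangles lactate libraries; GMPS, PRPS2 and PPAT lie above 100 and IMPDH2, ATIC, NME1 and DTYMK below it in all 3 lactate libraries.

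Correction for base composition changed part of this picture. In all tested genes the fold change fell with the GC content of the longest transcript, from a median of 0.153 in the GC-poorest of 5 equal classes to -0.127 in the fourth and -0.0985 in the GC-richest. The members followed the same trend: the 8 that rose had a GC content of 33.8% to 45.1% and the 20 that fell 43.2% to 63.6%. Across the 33 members Spearman's rho between GC content and fold change was -0.692 and Pearson's r was -0.66. Across 11588 genes they were -0.445 and -0.396. Genes share libraries and are not independent, so these are descriptions. With the dependence on GC content and gene length removed from every library, 17 members fell and 3 rose. The median of the members was then -0.0965. Against these stand 25.7% of all genes that fell and 22.9% that rose under the same correction, or 48.6% changed. Of the 20 falls 16 kept their call, as did 3 of the 8 rises, those of GMPS, PRPS2 and CTPS2. Whether the trend is technical or part of the response was not tested.

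**Figure D2:**
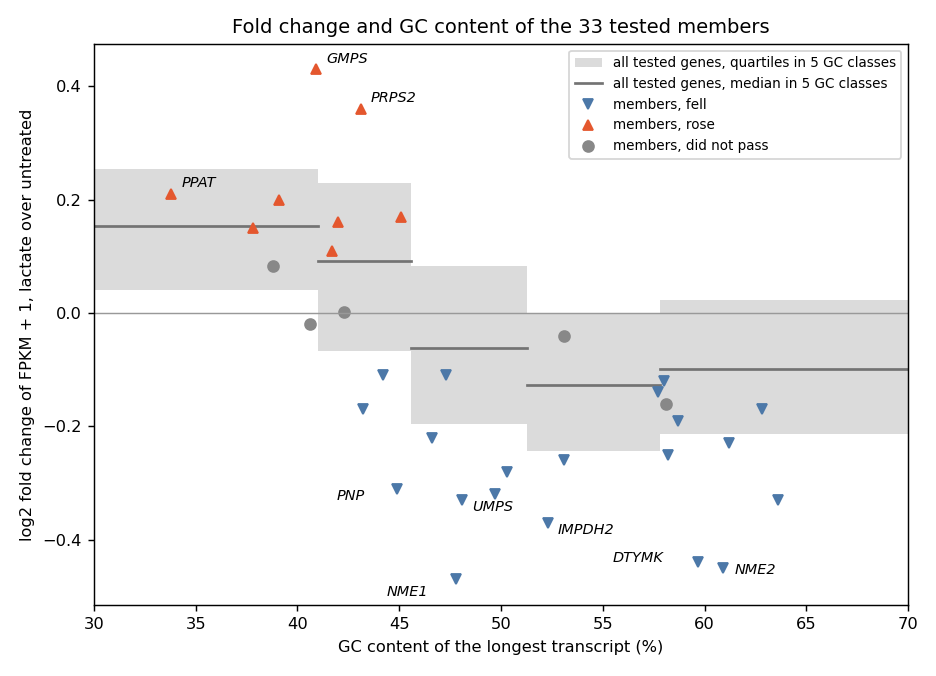
GC content of the longest transcript in percent (horizontal axis) against the log2 fold change of FPKM + 1 (vertical axis) for the 33 tested members, with the quartiles and median of all tested genes in 5 GC classes. The 8 risen members lie at 45.1% GC or less, and GMPS and PRPS2 lie above the upper quartile of their class.

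De novo purine synthesis begins with PRPP. PRPS1 and PRPS2, the ubiquitous PRPP synthetases, moved in opposite directions. The PRPS2 level was 20.4, 19.4 and 22.1 FPKM in untreated libraries and 27.2, 26.2 and 26.9 FPKM in lactate libraries. The groups did not overlap, and the mean went from 20.6 ± 1.34 to 26.8 ± 0.534 FPKM (SD, n = 3 per group), a log2 fold change of 0.36 (SE 0.0444, limma adjusted p = 0.000392). PRPS1 was at 52.1, 51.5 and 51.6 FPKM untreated and 48.3, 47.8 and 47.7 FPKM after lactate. That is a fall of 7.35% in the mean, with a log2 fold change of -0.11 (SE 0.0182, limma adjusted p = 0.00175). PRPS2 took 28.1%, 27.4% and 30% of the summed level of the pair in untreated libraries and 36.0%, 35.4% and 36.1% after lactate. That these shares do not overlap follows from the opposite changes of the genes. The deposited PRPS1 values correspond to 3390 nt, against 2623 nt of exons in GENCODE 29. With exon lengths from GENCODE 29 the mean PRPS2 share went from 23.6% to 30.2%. The PRPS2 rise held with the GC and length trend removed, at 0.32. The PRPS1 change was then -0.0394 and did not pass, and it was 0.0129 after quantile normalization.

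PPAT, the amidotransferase that commits PRPP to purines, rose. Its level was 6.14, 6.32 and 6.11 FPKM untreated and 7.26, 7.40 and 7.35 FPKM after lactate, with no overlap. The log2 fold change was 0.21 (SE 0.0283, limma adjusted p = 0.000562). This rise fell to 0.0793 and no longer passed once the trend was removed; PPAT has the lowest GC content of the members, 33.8%. PAICS, the bifunctional carboxylase and synthetase of the middle of the pathway, had overlapping groups at 34.3, 32.4 and 33.4 FPKM untreated and 33.8, 32.8 and 33.5 FPKM after lactate. Its log2 fold change of 0.00258 (SE 0.0267) did not pass, and the call depended on the scaling. PAICS passed as higher after quantile normalization (0.086) and after scaling to recovered reads (0.0725), and as lower with the trend removed (-0.13).

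PPAT and PAICS are neighbours that point away from each other on chromosome 4. PPAT, on the minus strand at chr4:56393362-56435615, and PAICS, on the plus strand at chr4:56435741-56464579, have 125 bases between them in GENCODE 29 on GRCh38. This stretch is shown because the genes start at its ends while, at the deposited scaling, PPAT alone of the pair rose. That contrast did not hold in every setting, as given above. It reads on the PPAT strand, from RefSeq's GRCh38.p14 sequence at chr4:56435616-56435740:
PPAT-PAICS interval: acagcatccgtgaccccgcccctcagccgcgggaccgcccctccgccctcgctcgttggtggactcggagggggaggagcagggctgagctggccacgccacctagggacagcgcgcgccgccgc

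Set against PAICS within each library, PPAT was at 17.9%, 19.5% and 18.3% of the PAICS FPKM untreated and 21.5%, 22.5% and 21.9% after lactate. The mean ratio went from 18.6% ± 0.832 to 22.0% ± 0.515 (SD, n = 3; exact two-sided permutation p = 0.1, the smallest that 3 libraries against 3 allow). The ratio was higher in each lactate library than in any untreated one.

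GART, PFAS and ATIC, which carry out the formylation, amidation and ring closure steps, all fell. The trifunctional GART was at 39.1, 38.6 and 39.5 FPKM untreated and 33.5, 33.1 and 33.7 FPKM after lactate, a log2 fold change of -0.22 (SE 0.0204, limma adjusted p = 0.000115). PFAS was at 7.41, 7.86 and 7.97 FPKM untreated and 6.26, 6.24 and 6.52 FPKM after lactate, a log2 fold change of -0.25 (SE 0.0359, limma adjusted p = 0.00078). ATIC, the bifunctional enzyme that makes IMP, was at 61.9, 60 and 60.9 FPKM untreated and 49.7, 49.7 and 50.8 FPKM after lactate. Its log2 fold change was -0.28 (SE 0.0209, limma adjusted p = 4.92e-05). In none of these genes did the groups overlap, and all 3 falls kept their call with the trend removed, at -0.26 for GART and -0.19 for both PFAS and ATIC. ADSL, adenylosuccinate lyase, which acts both on the way to IMP and from IMP to AMP, was listed at 0.704, 0.699 and 0.729 FPKM untreated and 0.584, 0.660 and 0.729 FPKM after lactate. The groups touched at 0.729, and the gene was not tested. This low level rests on 213 to 355 recovered reads per library, and 68.8% of the ADSL coding bases are shared in GENCODE 29 with AL022238.4, itself at 0.00708 to 0.0197 FPKM. How reads on both genes were counted is not stated in these sources, so the ADSL level is uncertain.

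The GMP branch held both the clearest rise and one of the clearest falls of the purine genes. IMPDH2 is the main IMP dehydrogenase of proliferating cells, which turns IMP into xanthosine monophosphate (XMP). It stood at 50.8, 51.1 and 50.7 FPKM untreated and at 39.1, 39.3 and 39.1 FPKM after lactate. The means of 50.8 ± 0.236 and 39.2 ± 0.119 FPKM (SD, n = 3) differ by 23.0%, a log2 fold change of -0.37 (SE 0.018, limma adjusted p = 1.27e-05). GMPS, the synthetase that aminates XMP to GMP, stood at 36.7, 36.9 and 36.9 FPKM untreated and at 51.3, 48.8 and 49.6 FPKM after lactate. Its mean went from 36.8 ± 0.132 to 49.9 ± 1.3 FPKM (SD, n = 3), a log2 fold change of 0.43 (SE 0.0238, limma adjusted p = 1.74e-05). Set against IMPDH2 within each library, GMPS was at 72.2%, 72.2% and 72.8% of the IMPDH2 level in untreated and 131%, 124% and 127% in lactate libraries. The exact two-sided permutation p of this ratio was 0.1, again the smallest possible. It adds nothing to the values above: with GMPS higher and IMPDH2 lower in every lactate library, the ratio had to separate. Which of these genes stands higher depends on the gene length used: the deposited IMPDH2 values correspond to 5123 nt, against 2773 nt of exons in GENCODE 29. With exon lengths from GENCODE 29 for both genes GMPS went from 38.7% ± 0.188 to 68.1% ± 1.89 of IMPDH2, so the ratio rose likewise but IMPDH2 stayed the higher one. GMPS (chr3:155870536-155944026, plus strand) rests on 8140 to 17494 reads per library and IMPDH2 (chr3:49024325-49029408, minus strand) on 6207 to 8642. Both changes kept their call in the fit with the GC and length trend removed, at 0.26 for GMPS and -0.24 for IMPDH2.

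IMPDH1, the less abundant IMP dehydrogenase here, was at 18.5, 18.9 and 17.6 FPKM untreated and 15.5, 16.7 and 16.5 FPKM after lactate. It fell by 0.17 on the log2 scale (SE 0.0394, limma adjusted p = 0.00844), less than IMPDH2, and did not pass with the trend removed (-0.0717) or after scaling to recovered reads (-0.0982). Its share of the summed IMPDH level went from 26.5% ± 0.662 to 29.3% ± 0.852 (SD, n = 3; exact two-sided permutation p = 0.1), or from 16.3% to 18.3% with GENCODE 29 lengths. On the AMP branch ADSS2, adenylosuccinate synthase, was at 23.3, 23.1 and 23.0 FPKM untreated and 27.3, 24.9 and 25.8 FPKM after lactate. It rose by 12.4% in the mean (log2 fold change 0.16, SE 0.0347, limma adjusted p = 0.00549), with no overlap of the groups, but was at 0.0792 and did not pass with the trend removed.

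Taking the 12 de novo purine genes by count, 6 fell, 4 rose, PAICS did not pass and ADSL was not tested. Of the 11 tested, 54.5% fell and 36.4% rose, against 30.9% and 27.7% of all tested genes. The median log2 fold change of the 11 tested was -0.11. Scaling to recovered reads gave 4 falls and 5 rises, quantile normalization 5 and 5, and removal of the GC and length trend 5 falls and 2 rises. IMPDH2, ATIC, PFAS and GART fell, and GMPS and PRPS2 rose, under each of these settings.

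**Figure D3:**
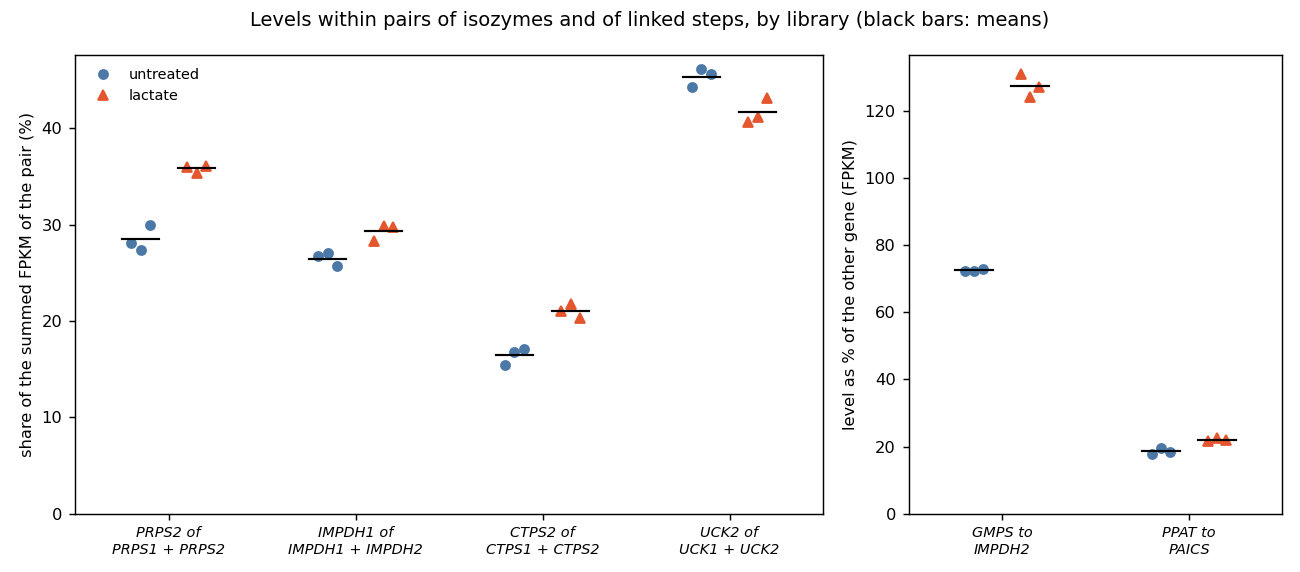
Left, the share of the first-named gene in the summed FPKM of an isozyme pair, in percent; right, the level of one gene as a percentage of another of the same pathway. Points are single libraries and black bars the means of 3. The groups do not overlap in any of the 6 comparisons. For the PRPS and CTPS pairs and for GMPS to IMPDH2 this follows from the opposite changes of the genes. GMPS goes from 72.4% to 127% of IMPDH2 at the gene lengths behind the deposited values.

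De novo pyrimidine synthesis was lower in 3 of 5 genes, with CTPS2 the only one to rise. That is 60% and 20%, against 30.9% and 27.7% of all tested genes. The counts were the same with the GC and length trend removed, against 25.7% and 22.9% of all genes. With 5 genes these shares are coarse. CAD, the trifunctional enzyme of the first steps, was at 8.46, 8.47 and 8.98 FPKM untreated and 7.54, 7.96 and 7.70 FPKM after lactate. This is a fall of 10.5% in the mean (log2 fold change -0.14, SE 0.0346, limma adjusted p = 0.00955). It did not pass after scaling to recovered reads (-0.0779). DHODH, the mitochondrial dehydrogenase of the pathway, was at 4.18, 4.21 and 4.03 FPKM untreated and 4.0, 3.97 and 4.02 FPKM after lactate. The DHODH groups did not overlap, but the log2 fold change of -0.0404 (SE 0.0318, limma adjusted p = 0.305) did not pass.

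UMPS, which joins orotate to PRPP and yields UMP, changed most among the pyrimidine genes. It was at 9.22, 8.99 and 9.08 FPKM untreated and 7.24, 6.92 and 6.90 FPKM after lactate. The mean went from 9.10 ± 0.114 to 7.02 ± 0.192 FPKM (SD, n = 3), a log2 fold change of -0.33 (SE 0.03, limma adjusted p = 0.000102). With the trend removed the value was -0.34.

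The CTP synthetases, which make CTP from UTP, moved apart. CTPS1, the more abundant one, was at 10.5, 9.98 and 10.0 FPKM untreated and 8.95, 8.57 and 9.20 FPKM after lactate, a log2 fold change of -0.17 (SE 0.035, limma adjusted p = 0.00419). CTPS2 was at 1.91, 2.01 and 2.06 FPKM untreated and 2.38, 2.39 and 2.35 FPKM after lactate, a log2 fold change of 0.17 (SE 0.0382, limma adjusted p = 0.00622). Neither pair of groups overlapped. The added 1 in the log scale compresses the change of so low a gene, whose mean FPKM differed by 19.1%. CTPS2 took 15.4%, 16.8% and 17.1% of the summed CTPS level untreated and 21.0%, 21.8% and 20.3% after lactate. Both calls held with the trend removed, where CTPS1 was at -0.32 and CTPS2 at 0.13.

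**Figure D4:**
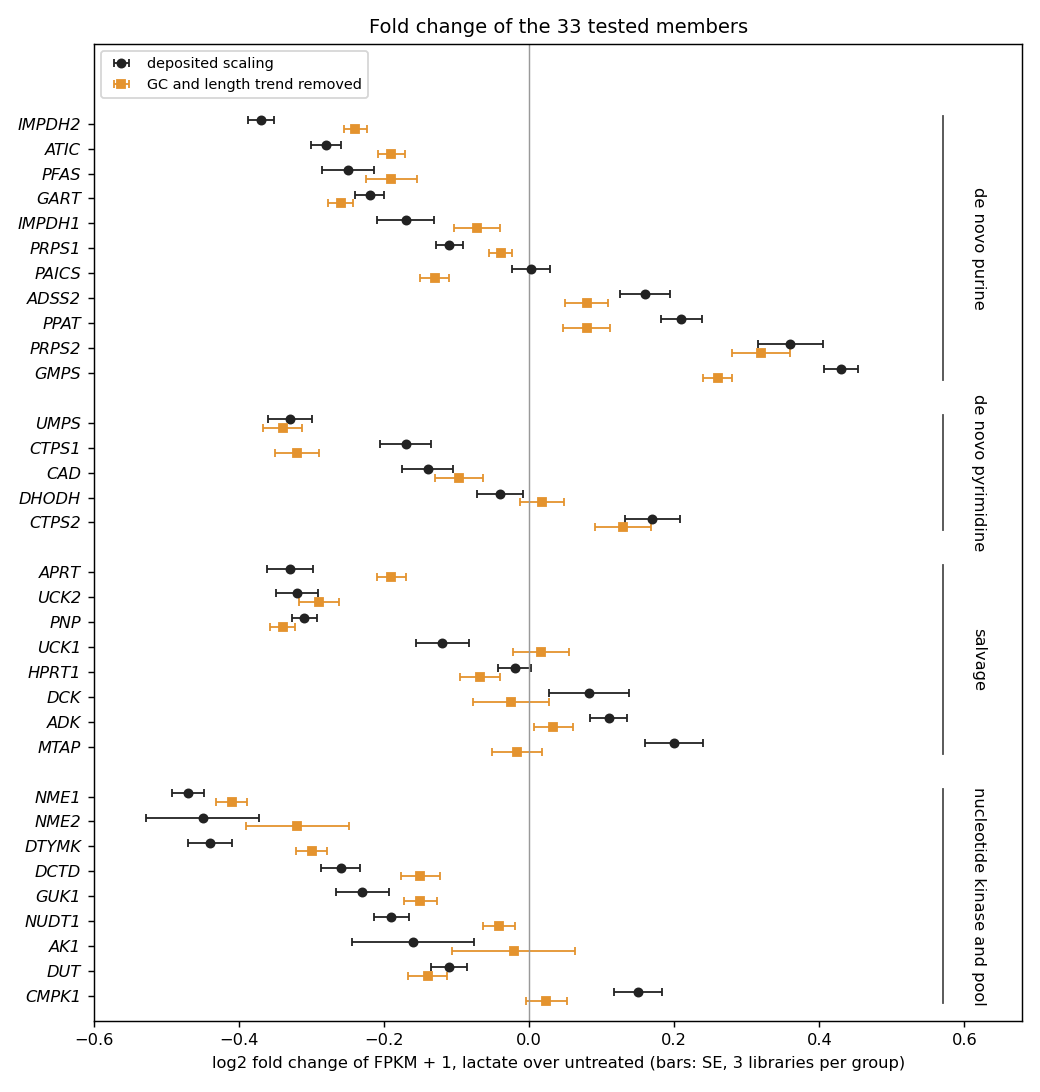
Log2 fold change of FPKM + 1, lactate over untreated (horizontal axis), of the 33 tested members by route, with limma's SE as bars, as deposited (circles) and with the GC and length trend removed (squares). GMPS and PRPS2 stay to the right of 0 and IMPDH2, UMPS, PNP, NME1 and DTYMK to the left in both.

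Salvage was mixed: of 9 genes 4 fell, 2 rose, 2 did not pass and TK2 was not tested. Of the 8 tested, 50% fell and 25% rose, against 30.9% and 27.7% of all tested genes. With the GC and length trend removed 37.5% fell and 0 rose, against 25.7% and 22.9% of all genes. The 37.5% changed were then fewer than the 48.6% of all genes. APRT and PNP hold the highest levels of all members. APRT, which salvages adenine, was at 140, 151 and 144 FPKM untreated and 112, 118 and 116 FPKM after lactate. The change of -0.33 (log2; SE 0.0318, limma adjusted p = 0.000142) corresponds to a mean 20.4% lower. PNP, the phosphorylase that splits inosine and guanosine, was at 102, 101 and 103 FPKM untreated and 81.0, 82.6 and 82.1 FPKM after lactate. Its log2 fold change was -0.31 (SE 0.0173, limma adjusted p = 1.74e-05), and -0.34 with the trend removed. HPRT1, which salvages hypoxanthine and guanine, did not pass. It was at 63.8, 65.6 and 66.1 FPKM untreated and 63.5, 63.6 and 65.6 FPKM after lactate, with overlapping groups and a log2 fold change of -0.0199 (SE 0.0229, limma adjusted p = 0.484). After quantile normalization, however, HPRT1 was at 0.12 and passed as higher.

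ADK and MTAP, which act on adenosine and on the methylthioadenosine left by polyamine synthesis, rose. ADK was at 23.8, 24.7 and 23.6 FPKM untreated and 26.3, 25.7 and 26.0 FPKM after lactate (log2 fold change 0.11, SE 0.0255, limma adjusted p = 0.00812). MTAP was at 5.44, 5.0 and 4.99 FPKM untreated and 6.15, 5.84 and 6.12 FPKM after lactate (log2 fold change 0.20, SE 0.0403, limma adjusted p = 0.00446). The groups did not overlap in either gene. Neither passed with the trend removed, where ADK was at 0.0333 and MTAP at -0.0167.

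Both uridine-cytidine kinases fell. UCK2, the form often high in tumours, was at 10.8 FPKM in each untreated library and at 8.24, 8.55 and 8.67 FPKM after lactate. Its log2 fold change was -0.32 (SE 0.0284, limma adjusted p = 0.000102), and -0.29 with the trend removed. UCK1 was at 13.6, 12.7 and 12.8 FPKM untreated and 12, 12.2 and 11.4 FPKM after lactate, a log2 fold change of -0.12 (SE 0.0365, limma adjusted p = 0.0223). This fall did not pass without untreated library 1 (-0.0948) or without lactate library 3 (-0.0963), nor with the trend removed (0.0164). UCK2 went from 45.3% ± 0.941 to 41.7% ± 1.31 of the summed UCK1 and UCK2 level (exact two-sided permutation p = 0.1).

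DCK, the cytosolic deoxycytidine kinase, was at 6.90, 5.97 and 6.06 FPKM untreated and 6.41, 6.80 and 6.98 FPKM after lactate, with overlapping groups. The log2 fold change of 0.0823 (SE 0.0551, limma adjusted p = 0.233) did not pass, but it was 0.14 and passed without untreated library 1, the highest of its group. TK2, the mitochondrial thymidine kinase, was listed at 0.961, 1.1 and 0.970 FPKM untreated and 0.762, 0.665 and 0.798 FPKM after lactate, from 226 to 334 reads per library. The groups did not overlap. With no filter on low values TK2 could be tested, and its log2 fold change was -0.21 (limma adjusted p = 0.0492 in that fit alone).

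The nucleotide kinases and pool enzymes had the lowest median of the 4 routes, -0.23, with 7 of 9 lower and 1 higher. So 77.8% of them fell and 11.1% rose, against 30.9% and 27.7% of all tested genes. With the GC and length trend removed their median was -0.15, and 66.7% fell and 0 rose, against 25.7% and 22.9% of all genes. NME1, the nucleoside diphosphate kinase that charges nucleoside diphosphates to triphosphates, stood at 33.6, 34.2 and 33.1 FPKM untreated and at 24.2, 24.0 and 24.0 FPKM after lactate. The means of 33.6 ± 0.568 and 24.0 ± 0.129 FPKM (SD, n = 3) give a log2 fold change of -0.47 (SE 0.022, limma adjusted p = 1.23e-05), and -0.41 with the trend removed. NME2, its close paralog, was listed at 1.94, 2.50 and 2.30 FPKM untreated and 1.42, 1.5 and 1.2 FPKM after lactate. It fell by 0.45 on the log2 scale (SE 0.0779, limma adjusted p = 0.00197), and by 0.72 with voom on recovered reads, where no 1 is added. Both genes share exons with the annotated read-through gene NME1-NME2, which covers 75.6% of the NME1 coding bases and all of those of NME2 and was itself listed at 0.032 to 0.313 FPKM. The NME2 values rest on 110 to 191 reads per library, and how reads shared with the read-through or the paralog were counted is not stated, so its level in particular is uncertain.

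DTYMK, the thymidylate kinase needed for dTTP, fell almost as much as NME1. It was at 54.2, 56.0 and 53.1 FPKM untreated and 38.5, 40.6 and 40.6 FPKM after lactate. The mean was 26.6% lower, with a log2 fold change of -0.44 (SE 0.0299, limma adjusted p = 3.48e-05) and of -0.30 with the trend removed. DCTD, the deaminase that feeds dUMP, was at 33, 32.9 and 33.9 FPKM untreated and 28.1, 26.8 and 27.7 FPKM after lactate (log2 fold change -0.26, SE 0.0264, limma adjusted p = 0.00016). DUT, which hydrolyses dUTP and yields dUMP, was at 35.4, 36.0 and 36.7 FPKM untreated and 33, 34.2 and 33 FPKM after lactate (log2 fold change -0.11, SE 0.0248, limma adjusted p = 0.00728). The DUT fall did not pass after quantile normalization (-0.0152) or after scaling to recovered reads (-0.0381). In all 3 genes of the thymidylate route the groups stood apart.

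GUK1, the guanylate kinase, was at 70.2, 73.1 and 69.9 FPKM untreated and 57.5, 63.1 and 61.1 FPKM after lactate (log2 fold change -0.23, SE 0.0365, limma adjusted p = 0.00134). After quantile normalization the GUK1 value was -0.0793 and did not pass. NUDT1, which hydrolyses oxidized purine triphosphates, was at 39.3, 38.6 and 38.0 FPKM untreated and 33, 33.7 and 34.2 FPKM after lactate (log2 fold change -0.19, SE 0.0238, limma adjusted p = 0.000389). With the trend removed NUDT1 was at -0.0412 and did not pass. CMPK1, the UMP-CMP kinase, was the riser of this group, at 47.8, 44.4 and 44.1 FPKM untreated and 51.0, 49.9 and 50.5 FPKM after lactate (log2 fold change 0.15, SE 0.033, limma adjusted p = 0.00631). It was at 0.0237 and did not pass with the trend removed. AK1, an adenylate kinase, was listed at 1.45, 1.18 and 1.69 FPKM untreated and 1.05, 1.21 and 1.28 FPKM after lactate, with overlapping groups. Its change of -0.16 (log2; SE 0.0843, limma adjusted p = 0.14) did not pass, although it was -0.24 and passed without untreated library 2. AK1 rests on 77 to 146 reads per library, and 92.4% of its coding bases are shared with AL157935.2, so it too is uncertain.

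By mean untreated FPKM, which is per length and can be set between genes as far as the lengths used hold, APRT at 145 and PNP at 102 led the members. GUK1 at 71.1 FPKM, HPRT1 at 65.2 and ATIC at 60.9 came next. PRPS1 at 51.7 ± 0.345 and IMPDH2 at 50.8 ± 0.236 FPKM were close without overlap, while the untreated levels of PAICS, DCTD and NME1, between 32.4 and 34.3 FPKM, overlapped. The pyrimidine genes lay low, from 1.99 FPKM for CTPS2 to 10.2 FPKM for CTPS1. After lactate GMPS, at 49.9 FPKM, stood beside ATIC at 50.1 FPKM. The place of IMPDH2, PRPS1 and ADK in this order depends on gene length. With GENCODE 29 exon lengths their untreated means would be 93.9, 66.9 and 35.2 FPKM.

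Calls were compared over 18 settings, made up of the main one and alternatives that left the threshold as it was. In all the settings in which they could be tested, 13 members were called as lower: GART, PFAS, ATIC, IMPDH2, UMPS, CTPS1, APRT, PNP, UCK2, NME1, NME2, DTYMK and DCTD. PRPS2, GMPS and CTPS2 were called as higher in the same way. When a change of more than 1.2-fold was asked for, 4 members passed: IMPDH2, NME1 and DTYMK as lower and GMPS as higher. Shares of all tested genes are not given for the 18 settings together or for that minimum fold, so these counts describe the members alone.

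Other genes of nucleotide metabolism, 65 in a list of 9 classes, were set beside the members. Of the 47 tested, 23 fell (48.9%, against 30.9% of all tested genes), 11 rose (23.4%, against 27.7%) and 13 did not pass, with a median log2 fold change of -0.0596. With the GC and length trend removed 48.9% of the 47 fell and 21.3% rose, against 25.7% and 22.9% of all genes. The classes held 2 to 9 tested genes each, too few to compare by share, so only counts are given. Enzymes that supply one-carbon units for the purine ring and for thymidylate were lower in 4 of 5, with a median of -0.28. Enzymes that clear the nucleotide pool had 3 lower and 0 higher. Pyrimidine salvage and nucleoside transport each had 2 and 0, and PRPP synthetase-associated genes 1 and 0. Deoxynucleotide supply had 4 lower and 3 higher, and breakdown 3 and 2. Purine interconversion had 3 lower and 4 higher, and further nucleoside diphosphate kinases 1 and 2. With the trend removed one-carbon supply had 5 lower and 0 higher, pool clearing 4 and 0, and nucleoside transport 1 and 0. Breakdown then had 3 and 1, pyrimidine salvage 2 and 1, purine interconversion 4 and 4, and deoxynucleotide supply 3 and 3. Further nucleoside diphosphate kinases had 1 and 1, and PRPP synthetase-associated genes 0 and 0. Over the 47, removal of 1 library at a time gave 30 or 31 calls in place of 34. Genes past the threshold with a log2 fold change of at least 0.3 in size included RRM2B, AK3, NT5E, ITPA, DCTPP1 and UCKL1.

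AK3, the mitochondrial GTP:AMP phosphotransferase, had a log2 fold change of 0.42, from 7.51 ± 0.0654 to 10.4 ± 0.0861 FPKM (SD, n = 3; limma adjusted p = 2.31e-05). RRM2B, the p53-inducible small subunit of ribonucleotide reductase, rose from 4.81 ± 0.189 to 6.68 ± 0.431 FPKM (log2 fold change 0.40, limma adjusted p = 0.000357). ITPA and DCTPP1, which clear inosine and noncanonical deoxycytidine triphosphates, also fell. Their log2 fold changes were -0.41 and -0.37, from 52.0 to 38.9 FPKM and from 87.9 to 67.6 FPKM. UCKL1, a relative of UCK1 and UCK2, went from 7.13 to 5.46 FPKM (-0.33). NT5E, the surface nucleotidase CD73 that makes adenosine from AMP, went from 53.7 to 66.6 FPKM (0.30).

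Known regulators of these genes were also lower in the same libraries. ATF4, which drives one-carbon and amino acid genes, was at 201, 199 and 201 FPKM untreated and 131, 135 and 135 FPKM after lactate (log2 fold change -0.58, SE 0.0188, limma adjusted p = 5.69e-06). MYC was at 28.5, 29.3 and 28.5 FPKM untreated and 23.6, 25.2 and 24.8 FPKM after lactate (log2 fold change -0.22, SE 0.0296, limma adjusted p = 0.000554). MAX, its partner, had a log2 fold change of -0.18 (limma adjusted p = 0.000733). E2F1 had one of -0.19 (limma adjusted p = 0.0181), which did not pass with the trend removed (-0.0652) or without untreated library 2 (-0.16), lactate library 1 (-0.18) or lactate library 3 (-0.15). ATF4, MYC and MAX passed as lower with the trend removed too, at -0.44, -0.0921 and -0.0949. The part of these factors in the members' levels was not tested.

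Promoters were read for the letters these factors are known to bind, in windows of 300 bases, 250 before and 50 after a RefSeq start (GRCh38.p14), on both strands. Of the members 33 had a window and IMPDH2 and ADSL did not. The E-box CACGTG, the MYC-MAX motif, was in windows of 7 members, or 21.2%, against 8.77% of 27305 genes. They are ATIC, NME1 and NUDT1, which fell, PPAT, which rose, and PAICS, DHODH and DCK, which did not pass. The 27305 are all genes with a window, expressed here or not, and a gene counts if any of its windows matches. The shares are therefore only a rough comparison. The E2F element TTTCCCGC was in 2 members, DUT and PRPS2 (6.06%, against 1.98% of genes). The ATF4 element TGATGNAAT was in none, against 1.22% of genes. The matches thus lie in genes of every outcome. Windows of ATIC and NME1, which fell, and of PPAT, which rose as deposited but did not pass with the trend removed, are shown with the E-box in capitals. ATIC holds a second match and both are shown. For PPAT and PAICS it is one shared match, at chr4:56435792-56435797, and NME1's window is cut to 28 bases by the end of the 300.
ATIC, chr2:215312001-215312030, plus strand: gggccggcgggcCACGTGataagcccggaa
ATIC, chr2:215312076-215312105, plus strand: ctcctacctgcgCACGTGgtgccgccgctg
NME1, chr17:51153581-51153608, plus strand: agtgctgcgaacCACGTGggtcccgggc
PPAT, chr4:56435780-56435809, minus strand: aacggagatttcCACGTGcagcaaatacag

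Relative to the RefSeq start of its own gene, the first ATIC match begins 46 bases upstream and the PPAT match 182 bases upstream. The second ATIC match and the NME1 match lie downstream of those starts. The first ATIC match nevertheless lies inside the gene as annotated in GENCODE, where ATIC begins at chr2:215311817. The PPAT match lies inside PAICS, at base 41 from a PAICS RefSeq start. None of the matches shown is therefore clearly outside transcribed sequence. A match of letters is a description of the sequence and not a measured binding site.

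Markers and library quality were read once for all of these results. All 9 epithelial markers, CDH1 and EPCAM among them, reached 1 FPKM, although KRT14 stood at only 1.89 to 2.89 FPKM. Their summed level was 460 to 466 FPKM untreated and 470 to 478 FPKM after lactate, but single markers moved apart: KRT5 (mean 155 to 118 FPKM) and KRT6A fell, and the other 7, KRT17 (108 to 136 FPKM) among them, rose. The part of these shifts in the members' levels was not tested. None of 6 fibroblast markers and none of 5 leukocyte markers reached 1 FPKM. Their sums were 1.04 to 1.19 and 0.0572 to 0.134 FPKM untreated and 1.59 to 1.79 and 0.0598 to 0.097 FPKM after lactate. Of 4 endothelial markers CDH5 alone reached it, with sums of 1.13 to 1.40 FPKM untreated and 1.03 to 1.13 FPKM after lactate. DCN, PTPRC and KDR are not in the table. Libraries correlated at 0.996 to 0.997 within and 0.989 to 0.991 between groups (Pearson's r across the tested genes). Reads recovered from the values summed to 25439360 to 38772849 per library, and members other than AK1, NME2, ADSL, TK2 and CTPS2 rest on at least 466 reads in each. Those sums were 101% to 102% of the denominators of the FPKM in untreated and 96.1% to 97.3% in lactate libraries. Scaling to them gave 15 falls and 9 rises among the members. The share of all tested genes in that setting is not given here.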

How the data were processed

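Poly-A RNA was selected from total RNA of 6 CAL27 libraries, per the labels' protocols, and groups follow the treatment in the labels. The deposited table holds FPKM per gene, made by the authors on hg38. The submitters' processing notes name featureCounts 1.5.0-p3, StringTie 1.3.3b, HISAT2 2.0.5 and fastp. What each tool did, which annotation was used and whether strand was read is not given in the sources used here. Because the unit is FPKM, limma 3.58.1 (R 4.3.3; trended, robust variance, group the only term) was run on log2(FPKM + 1) for genes of at least 1 FPKM in at least 3 libraries, with Benjamini-Hochberg adjustment over all 11792 and a threshold of 0.05. This scale understates the change of low genes. Whole reads were recovered from the steps of the values, within 0.003 reads for 31367 of 31368 genes. A low gene may be off by a common factor. GC content, length and coding overlap came from GENCODE 29 and promoters from RefSeq. The GC and length trend was removed per library by natural splines (4 degrees of freedom). Pair ratios were compared by exact two-sided permutation tests. Other steps used Python 3.11.15 with scipy 1.17.1, pandas 2.3.3, numpy 2.4.6 and matplotlib 3.10.9. The test was checked on simulated data.

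The members, the lists and the tests were chosen with earlier results of these data known. All 35 members are named, other pathway genes only if past the threshold with a log2 fold change of at least 0.3 in size, and SLC29A1, UPP1, KRT5, KRT6A, KRT14 and KRT17 were added after their values were seen. A gene that the rule names is not reported here. Alternatives were other scalings, filters, pseudocounts, thresholds and variance models, protein-coding genes only, voom on recovered reads, the GC and length trend, the replicate block and leaving out each library. Exon lengths from GENCODE 29 were tried for ratios between genes after the data were seen.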

Additional observations from a re-analysis of the deposited data

How the results depend on the processing

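Under every scaling, filter, pseudocount, variance model and left-out library that kept the threshold, 15 to 21 members fell. Shares of all tested genes are given only for the main fit and with the trend removed, so other counts describe the members alone. The counts without each library in turn were 27 to 29 changed (19 to 21 lower, 8 or 9 higher), with 10 purine and 4 pyrimidine members each time, 5 to 6 salvage and 8 to 9 kinase and pool members, and 30 to 31 other pathway genes. A minimum fold of 1.2 left 4 changed members, 3 lower and 1 higher: 2 purine (1 lower, 1 higher), 0 pyrimidine (0 and 0), 0 salvage (0 and 0) and 2 kinase and pool members (2 lower, 0 higher), and 2 other pathway genes (1 and 1). With the GC and length trend removed 3 members rose, 2 of them purine, 0 salvage and 0 kinase and pool, and 3 salvage members changed. A filter at 5 FPKM, which tests fewer genes, left 0 risen pyrimidine members and 6 risen other genes. Signs reversed, with a call on at least 1 side, for PRPS1 (0.0129) and HPRT1 (0.12) under quantile normalization and for PAICS (-0.13), MTAP (-0.0167) and UCK1 (0.0164) with the trend removed; the cause was not tested. Without any call, PAICS, DHODH, HPRT1 and DCK also changed sign in 1 setting or more. Without members whose coding bases are over 50% shared with another gene, a choice made after seeing the data, 26 members changed. Libraries with the same replicate number shared no clear deviation from their group means (correlations 0.0526, 0.0668 and -0.00377). That cannot settle whether they were cultured or prepared together. The replicate block gave 28 changed members, 20 lower and 8 higher. Depth limits AK1, NME2, ADSL, TK2 and CTPS2.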

Other observations

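Genes that mark proliferation, which is tied to nucleotide demand, all passed the test but were split in direction. Of 16 genes 10 fell (62.5%, against 30.9% of all tested genes) and 6 rose (37.5%, against 27.7%), with a median log2 fold change of -0.16. BUB1, a mitotic checkpoint kinase, was at one end with 0.46, and MCM7, a subunit of the replicative helicase, at the other with -0.38. Within the helicase MCM6 rose while MCM2, MCM3, MCM4, MCM5 and MCM7 fell. With the GC and length trend removed 8 fell (50%, against 25.7% of all genes) and 5 rose (31.2%, against 22.9%), with a median of -0.0802. MCM3, at -0.0548, CCNA2 and AURKB then did not pass.

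A gene of nucleoside uptake and one of uridine breakdown fell too. SLC29A1, the main equilibrative nucleoside transporter, went from 26.9 ± 0.702 to 22.0 ± 0.531 FPKM (SD, n = 3; log2 fold change -0.28, limma adjusted p = 0.000188). UPP1, uridine phosphorylase, went from 148 ± 2.01 to 121 ± 3.47 FPKM (log2 fold change -0.29, limma adjusted p = 7.31e-05). SLC29A1 and UPP1 were singled out after their values were seen.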
